A study of Mus musculus with 8 samples.

Results

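The 31 genes described here are genes of microglia, the resident macrophages of the brain, together with genes shared with the macrophages at its borders. They were taken by name from the table of 54307 genes. The series compared *Lrig1* knockout (KO) with wild-type (WT) mice by bulk RNA-seq of polyA RNA from the ventricular-subventricular zone (V-SVZ), the tissue beside the lateral ventricle where adult neural stem cells reside. All mice were 8 weeks old and on the 129-Elite background. KO mice (n = 4, 2 female and 2 male) were a constitutive knockout, with CreERT2 knocked into both copies of the *Lrig1* gene, and WT mice (n = 4, 3 female and 1 male) had both copies intact. Each sample was the dissected periventricular tissue of 1 hemisphere of 1 mouse, with no sorting of cells. Loss of LRIG1 and presence of CreERT2 cannot be told apart in these mice, nor can loss in microglia and loss in the surrounding cells.

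Microglia enter the brain from the yolk sac early in development and renew themselves there, and their survival depends on the receptor CSF1R. At rest they sample the tissue with motile processes, sense released nucleotides and the neuronal chemokine CX3CL1, secrete the complement protein C1q, and digest what they take up in lysosomes. In the adult V-SVZ they lie among stem cells and migrating neuroblasts. Macrophages of the meninges, the choroid plexus and the perivascular spaces share most of this machinery but carry more CD206, encoded by *Mrc1*, and more antigen-presenting proteins.

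Estimated gene counts summed to between 47887437 and 74482334 per mouse. The targeted gene followed the labels, with *Lrig1* between 13.5 and 45.6 CPM (counts scaled to library size by edgeR's TMM method) in WT and between 1.17 and 4.15 CPM in KO mice. Its own log2 fold change of -3.80 ± 0.52 was not called in edgeR (Benjamini-Hochberg adjusted p = 0.286), although its groups did not overlap. With DESeq2, the study reported *Lrig1* as the most significantly lowered gene in these mice. The lowest WT value, 13.5 CPM, came from WT 2, the only WT male. In edgeR with genotype as a covariate, *Lrig1* was called lower in males (log2 fold change -1.53 ± 0.16, Benjamini-Hochberg adjusted p = 0.00971). The defining genes of microglia were present in all 8 mice, and 30 of the 31 members passed edgeR's filter on low counts, with between 32 and 7362 counts per mouse. The member that failed the filter was *Rgs1*. Of 18 genes of blood leukocytes, all but *Cd4* were nearly absent. None of the other 17 passed 0.363 CPM in any mouse, and *Ly6g* was listed at 0 in all of them. *Cd4* made up nearly all of the summed TPM of that list, between 22.5 and 45.5 per mouse. Which cells carried *Cd4* was not tested. Of the lists for other cells that were followed, genes of cortical excitatory neurons varied most between mice. *Slc17a7*, the vesicular glutamate transporter, lay between 5.45 and 1356 CPM.

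Levels of different genes were compared only in TPM, a share of all transcripts that takes account of their length. *Ctss*, the lysosomal protease cathepsin S, had the highest level with 80.8 ± 13 TPM (SD over the 8 mice). It was followed by *C1qa* at 60.4 ± 9.36, *P2ry12* at 57.9 ± 6.54 and *C1qb* at 57.4 ± 7.59 TPM. The order of *Ctss* above *C1qa* held in all 8 mice, whereas *P2ry12* lay above *C1qb* in 4 of 8, so these neighbours did not differ beyond their spread. In all, 18 members had a mean above 10 TPM, 11 lay between 1 and 10 TPM, and 2 lay under 1 TPM, namely *Mrc1* at 0.322 ± 0.208 TPM and *Rgs1* at 0.130 ± 0.283 TPM. Of the 30 pairs of neighbours in this order, 6 kept it in every mouse. The steps that held in every mouse were *Ctss* over *C1qa*, *C1qb* over *Csf1r*, *C1qc* over *Tyrobp*, *Laptm5* over *Tmem119*, *Ly86* over *Sall1* and *Fcrls* over *Mrc1*. *Fcrls*, the lowest member above *Mrc1*, stood at 2.79 ± 0.524 TPM.

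**Figure D1:**
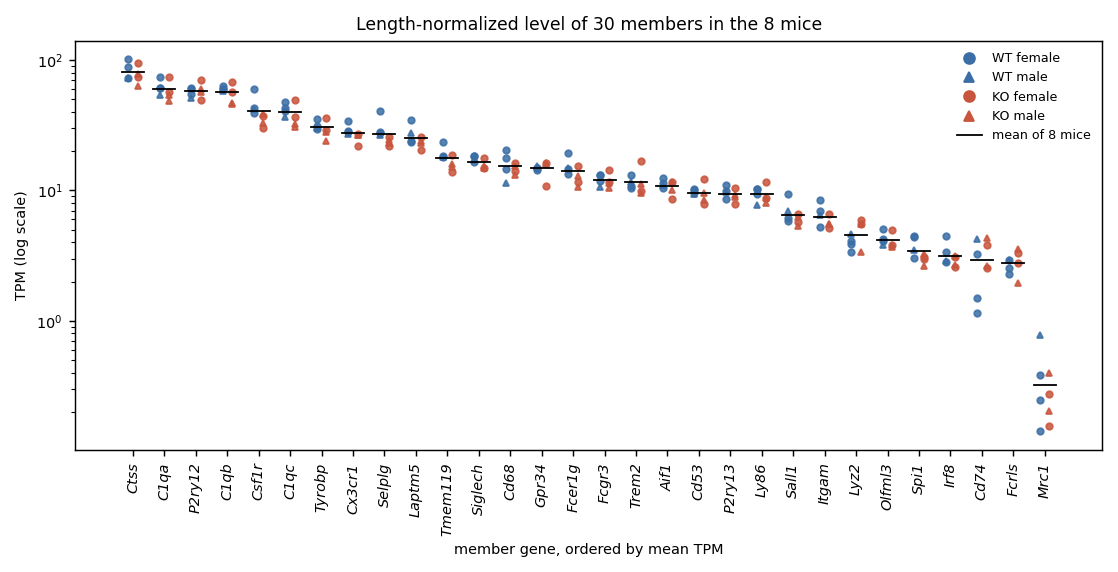
Level of 30 members in each of the 8 mice in TPM on a log axis, ordered by their mean (black line), with WT in blue, KO in red, females as circles and males as triangles. *Ctss* leads at 80.8 TPM, 18 members have a mean above 10 TPM, and *Mrc1* stands apart at 0.322 TPM; *Rgs1*, at 0 in some mice, is not drawn.

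A single annotated transcript carried nearly all of the level for most members, including 100% for *C1qa*, *C1qb*, *Cd53*, *P2ry13*, *Sall1*, *Fcrls*, *Lyz2* and *Mrc1*. *P2ry12* was split between P2ry12-202 with 55.7% and the short P2ry12-205 with 36.1% of its TPM, and the second has only 619 bases, which raises the TPM of the gene relative to its reads. *Itgam* was split between Itgam-203 (57.7%) and Itgam-201 (40.7%). In *Olfml3* the largest share, 55.9%, went to a transcript annotated as a retained intron. The main transcript of *Aif1*, which encodes the actin-bundling protein IBA1, held between 65.9% and 99.1% of the gene from mouse to mouse. Aif1-201, which is close to it in length (847 against 842 bases), was listed at 0 in 4 mice and held up to 32.7% in the others. These shares depend on how Salmon divided reads among overlapping transcripts.

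To ask whether microglial genes differed without LRIG1, KO and WT mice were set against each other with the quasi-likelihood test of edgeR, at a Benjamini-Hochberg adjusted p under 0.1 over all 17669 genes that passed the filter. None of the 30 tested members was called (0 of 30). The targeted gene *Lrig1* was not called in this test either, so that the lack of a call does not show that a gene is unchanged. Of all genes tested 1 was called, or 0.00566%, and that count was 0 without WT 1 or WT 4, 2 without WT 3 and 3 without WT 2. At an unadjusted p under 0.05 stood 2 members, *Csf1r* and *Selplg*, against 1.88% of all genes. Both had lower means in KO mice, as did 1.08% of all genes at that p. DESeq2 on the same counts also called 0 of the 31 members, with 5 at an unadjusted p under 0.05, and called 0.0615% of all genes it tested. The study, which also used DESeq2 and an adjusted p under 0.1, reported more changed genes from these mice. Across the members the log2 fold changes ran from -0.50 for *Mrc1* to 0.49 for *Cd74*, and the smallest adjusted p was 1.0. In every member the ranges of the 4 KO and the 4 WT mice overlapped, while the ranges stood apart for 1.53% of all genes tested. In whole tissue, fewer microglia and less RNA per microglial cell cannot be told apart.

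The fold changes leaned to one side without any member being called. The log2 fold change lay below 0 in 24 of the 30 members, against 50.3% of all genes, and its median over the members was -0.09, against -0.00 over all genes. Members rise and fall together between mice, so that these are not 24 separate observations. The lean also depended on single mice: without KO 3 or without WT 3, 16 of 30 lay below 0, with medians of -0.02 and -0.03, and without KO 4 or without WT 2 the medians were -0.16 and -0.16. The 2 members at an unadjusted p under 0.05 became 8 without WT 2, 4 without KO 1, 1 without KO 4, WT 1 or WT 3, and 0 without KO 2, KO 3 or WT 4, with none called in any of these fits. With sex as a covariate, 18 of 30 lay below 0, with a median of -0.04, whereas in females alone 26 of 30 did, with a median of -0.15 and 6 at an unadjusted p under 0.05.

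The size of a difference that the data still allow varied between members. For 28 of the 30 members the 95% interval of the fold change lay within 2-fold either way (82% of all genes), and for 21 it lay within 1.5-fold (62.6% of all genes). The exceptions at 2-fold were *Mrc1*, from -1.54 to 0.54 on the log2 scale, and *Cd74*, from -0.29 to 1.28. The tightest interval belonged to *Siglech*, from -0.30 to 0.14.

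**Figure D2:**
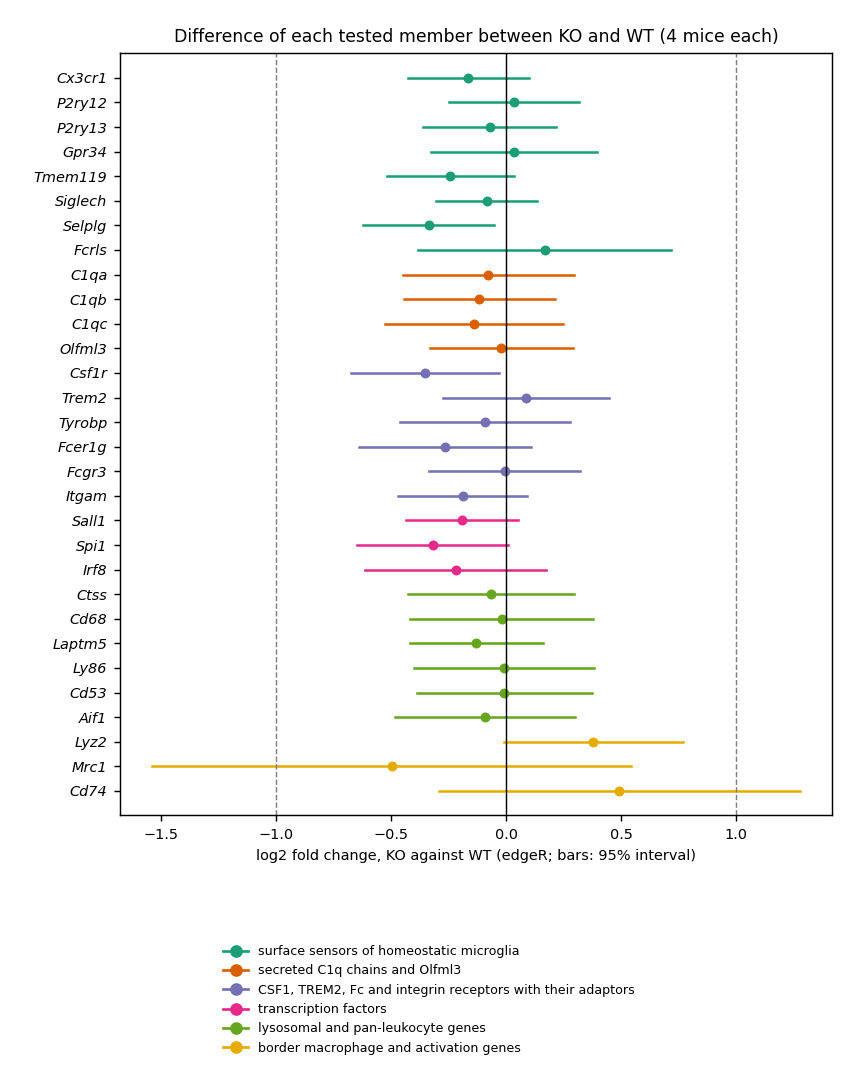
Log2 fold change of the 30 tested members, KO against WT with 4 mice each, from edgeR (points) with 95% intervals (bars), coloured by role, and dashed lines at 2-fold either way. The interval spans 0 for 28 members, lies below it for *Csf1r* and *Selplg*, and passes a dashed line for *Mrc1* and *Cd74*.

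Among the 8 surface sensors of resting microglia, 0 were called, and the median log2 fold change was -0.08. *Cx3cr1*, the receptor for the neuronal chemokine CX3CL1, measured 76.8, 64.6, 85.1 and 82.1 CPM in WT mice 1 to 4 and 79.2, 58.1, 67.9 and 70.2 CPM in KO mice 1 to 4. The group means of 77.2 ± 9.07 and 68.8 ± 8.70 CPM (SD, n = 4) were closer than the spread within either group, and 3 of the KO mice lay inside the range of WT. *P2ry12*, the ADP receptor that steers microglial processes to injury, had 61.7, 48.6, 66.9 and 52.5 CPM in WT and 62.6, 48.8, 58.8 and 64.6 CPM in KO mice, a log2 fold change of 0.03 ± 0.12 (SE). All 4 KO values of *P2ry12* fell between the lowest and the highest WT mouse. *Tmem119*, a transmembrane protein that separates microglia from other macrophages, had 27.7, 23.2, 32.1 and 30.7 CPM in WT and 25.9, 21.2, 22.4 and 26.7 CPM in KO mice (log2 fold change -0.24 ± 0.12). KO mice 2 and 3 lay below all WT mice and KO mice 1 and 4 inside their range.

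*Selplg*, which encodes the selectin ligand PSGL-1 and in the brain marks microglia, had the smallest unadjusted p of the members. It measured 34.0, 27.8, 38.3 and 42.2 CPM in WT and 29.8, 26.3, 27 and 29.7 CPM in KO mice. The KO mice were close together and lay below 3 of the 4 WT mice, while WT 2, the only WT male, fell among them. The means were 35.6 ± 6.20 and 28.2 ± 1.81 CPM, and the log2 fold change was -0.34 ± 0.13 in edgeR (unadjusted p = 0.0257, Benjamini-Hochberg adjusted p = 1.0). The remaining sensors were the nucleotide receptor *P2ry13*, the lysophosphatidylserine receptor *Gpr34*, the sialic acid-binding lectin *Siglech* and the Fc receptor-like gene *Fcrls*, with log2 fold changes of -0.07, 0.03, -0.08 and 0.17. The TPM ratio of *P2ry13* to its chromosomal neighbour *P2ry12* was 0.164 ± 0.018 over the 8 mice. *Fcrls* was the most variable member outside the border macrophage and activation genes, from 2.86 CPM in KO 3 to 6.27 CPM in KO 1.

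C1q, the recognition molecule that starts the classical complement pathway and tags synapses and debris, is built from 3 chains made by adjacent genes. *C1qa* measured 36.4, 27.5, 41.4 and 37.6 CPM in WT and 35.5, 32.8, 25.7 and 41.3 CPM in KO mice. *C1qb* measured 37.6, 31.4, 43.2 and 34.2 CPM in WT and 32.8, 34.9, 26.5 and 40.9 CPM in KO mice. *C1qc* measured 30.9, 22.8, 33.6 and 29.6 CPM in WT and 26.1, 25.7, 20.3 and 34.1 CPM in KO mice. In each chain KO 3 was the lowest mouse, and WT 3 or KO 4 the highest, so that the ranges of the genotypes nearly coincided. Log2 fold changes were -0.08 ± 0.16, -0.12 ± 0.15 and -0.14 ± 0.17, and none was called. The chains kept their proportions, with 0.954 ± 0.071 TPM of *C1qb* and 0.656 ± 0.030 TPM of *C1qc* for each TPM of *C1qa* over the 8 mice. The *C1qc* to *C1qa* ratio was 0.672 ± 0.023 in WT and 0.640 ± 0.030 in KO mice. *Olfml3*, a secreted olfactomedin protein of microglia, had 14.1 ± 2.05 CPM in WT and 13.9 ± 1.87 CPM in KO mice.

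The transcription factor PU.1, encoded by the member *Spi1*, is known to bind GAGGAAG-type letters in myeloid genes. Windows around the start sites of *C1qc*, *C1qb*, *Ctss* and *Cd53* are printed as examples. *C1qc*, *Ctss* and *Cd53* are the only matched members with the longer GAGGAAGT, and *C1qb* has no match to GAGGAAG, so these windows are not typical of the members. RefSeq held such windows, from 250 bases before to 50 bases after the start, for 22 of the 31 members, on the GRCm38.p6 build, which is older than the build the authors used. Each is written 5′ to 3′ on the strand of its gene, with GAGGAAG, or its reverse complement CTTCCTC, in capitals.
C1qc, chr4:136892865-136893164, minus strand: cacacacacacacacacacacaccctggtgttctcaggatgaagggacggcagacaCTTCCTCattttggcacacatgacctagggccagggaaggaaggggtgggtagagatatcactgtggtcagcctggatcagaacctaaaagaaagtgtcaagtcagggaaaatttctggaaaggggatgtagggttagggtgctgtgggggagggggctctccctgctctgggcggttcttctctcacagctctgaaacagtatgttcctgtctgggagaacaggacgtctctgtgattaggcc
C1qb, chr4:136886151-136886450, minus strand: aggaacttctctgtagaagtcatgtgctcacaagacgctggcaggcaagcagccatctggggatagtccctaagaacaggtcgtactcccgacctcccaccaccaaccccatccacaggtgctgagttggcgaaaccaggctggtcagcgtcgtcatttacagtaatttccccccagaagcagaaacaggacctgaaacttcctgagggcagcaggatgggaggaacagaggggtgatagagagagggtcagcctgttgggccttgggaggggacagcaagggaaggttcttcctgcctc
Ctss, chr3:95526536-95526835, plus strand: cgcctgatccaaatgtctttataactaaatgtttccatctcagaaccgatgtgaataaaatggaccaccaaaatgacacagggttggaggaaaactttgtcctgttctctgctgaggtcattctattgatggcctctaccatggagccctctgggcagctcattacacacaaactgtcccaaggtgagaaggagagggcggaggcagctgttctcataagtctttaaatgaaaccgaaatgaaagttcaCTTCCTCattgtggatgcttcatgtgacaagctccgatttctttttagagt
Cd53, chr3:106790100-106790399, minus strand: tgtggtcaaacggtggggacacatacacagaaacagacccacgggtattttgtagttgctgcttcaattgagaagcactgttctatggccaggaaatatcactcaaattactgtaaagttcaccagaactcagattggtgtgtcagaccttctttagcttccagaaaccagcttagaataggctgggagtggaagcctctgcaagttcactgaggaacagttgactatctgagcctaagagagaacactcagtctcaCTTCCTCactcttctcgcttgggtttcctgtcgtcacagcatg

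The letters GAGGAAG stood on either strand of the window in 10 of the 22 members matched (45.5%) and in 15.4% of the 27025 genes with such windows, or 13.6% of the 32851 windows themselves. The 10 members were *C1qc*, *Cd53*, *Ctss*, *Fcgr3*, *Fcrls*, *Itgam*, *Laptm5*, *Mrc1*, *P2ry13* and *Trem2*. The longer GAGGAAGT, which contains the first motif, stood in *C1qc*, *Cd53* and *Ctss*, 3 of 22 (13.6%) against 3.69% of genes. In *Ctss* it covered the start base itself, and in *Cd53* it lay just inside the transcript, from 6 to 13 bases past the start, whereas in *C1qc* it lay upstream, from position -195 to -188 with the start base at 0. These shares describe letters in a window and were not tested.

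Of the 6 receptors and adaptors for CSF1, TREM2, Fc and integrin ligands, 0 were called, and 5 had log2 fold changes below 0. *Csf1r*, whose signal microglia need to survive, measured 122, 104, 127 and 150 CPM in WT and 121, 84.6, 88.4 and 99.7 CPM in KO mice. KO mice 2, 3 and 4 lay below all 4 WT mice, and KO 1 lay beside WT 1. The means were 126 ± 19.0 and 98.5 ± 16.5 CPM, with a log2 fold change of -0.35 ± 0.14 in edgeR (unadjusted p = 0.0351, Benjamini-Hochberg adjusted p = 1.0), and over the alternatives its log2 fold change ran from -0.52 to -0.26. Its ligands did not pass the test either, with log2 fold changes of -0.19 ± 0.15 for *Csf1* and -0.14 ± 0.15 for *Il34*, the more abundant ligand, at 53.4 TPM.

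*Trem2*, a lipid-sensing receptor, measured 7.03, 6.76, 8.06 and 7.12 CPM in WT and 7.13, 6.52, 6.81 and 10.3 CPM in KO mice. Leaving aside KO 4, all mice lay between 6.52 and 8.06 CPM. *Tyrobp*, the adaptor DAP12 through which TREM2 signals, measured 7.56 ± 0.816 CPM in WT and 7.10 ± 1.42 CPM in KO mice. In TPM, *Trem2* stood at 0.383 ± 0.053 of *Tyrobp*, with the highest ratios, 0.463 and 0.464, in KO mice 3 and 4. *Fcer1g*, the common Fc receptor γ-chain, *Fcgr3*, a low-affinity IgG receptor, and *Itgam*, the integrin chain CD11b, had log2 fold changes of -0.27 ± 0.16, -0.01 ± 0.14 and -0.19 ± 0.12.

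The 3 transcription factors all had lower means in KO mice, and 0 of the 3 were called. *Spi1*, which encodes PU.1, the factor that all macrophages require, measured 4.82, 3.62, 4.31 and 4.67 CPM in WT and 4.08, 3.28, 3.02 and 3.56 CPM in KO mice. As with *Csf1r*, 3 of the KO mice lay below every WT mouse and KO 1 inside their range. The log2 fold change of *Spi1* was -0.32 ± 0.14 in edgeR (unadjusted p = 0.0540, Benjamini-Hochberg adjusted p = 1.0). *Irf8*, the interferon regulatory factor that acts with PU.1, stood at 6.56 ± 1.20 CPM in WT and 5.63 ± 0.990 CPM in KO mice. *Sall1*, a factor that keeps microglia in their resting identity, stood at 26.7 ± 4.01 and 23.4 ± 1.10 CPM, and its WT mean was raised by WT 4 at 32.5 CPM.

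The 6 lysosomal and pan-leukocyte genes, of which 0 were called, were close between genotypes, with log2 fold changes from -0.13 for *Laptm5* to -0.01 for *Ly86* and *Cd53* and all 6 intervals within 1.5-fold. *Ctss* measured 75.0, 53.2, 69.5 and 73.9 CPM in WT and 73.3, 61.5, 48.7 and 76.1 CPM in KO mice. Its lowest values, in WT 2 and KO 3, came from both genotypes, and so did its highest. *Cd68*, a lysosomal glycoprotein that increases in phagocytic microglia, had 9.48 ± 1.96 CPM in WT and 9.35 ± 1.4 CPM in KO mice. *Laptm5*, a lysosomal membrane protein of blood-lineage cells, had 45.7 ± 7.11 and 41.8 ± 4.81 CPM. *Ly86*, a partner of the Toll-like receptor homologue RP105, *Cd53*, a leukocyte tetraspanin, and *Aif1* had log2 fold changes of -0.01, -0.01 and -0.09.

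The 4 border macrophage and activation genes were low in abundance and did not follow the rest. *Lyz2*, lysozyme, measured 2.72, 3.22, 3.77 and 2.73 CPM in WT and 3.07, 4.38, 4.12 and 4.60 CPM in KO mice. KO mice 2, 3 and 4 lay above all WT mice, and KO 1 lay inside their range, so that 3 of 4 KO mice lay outside WT on the side opposite to *Csf1r* and *Spi1*. The means were 3.11 ± 0.500 and 4.04 ± 0.681 CPM and the log2 fold change was 0.38 ± 0.17 in edgeR (unadjusted p = 0.0557, Benjamini-Hochberg adjusted p = 1.0). *Cd74*, the invariant chain of MHC class II, measured 1.15, 2.90, 0.980 and 2.14 CPM in WT and 2.27, 2.89, 3.04 and 1.91 CPM in KO mice. The KO mice were the more uniform group, and WT 2 and WT 4 lay among them. *Mrc1* measured 0.576, 2.72, 1.13 and 1.37 CPM in WT and 0.918, 1.08, 1.5 and 0.599 CPM in KO mice, a 4.72-fold range from WT 1 to WT 2.

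**Figure D3:**
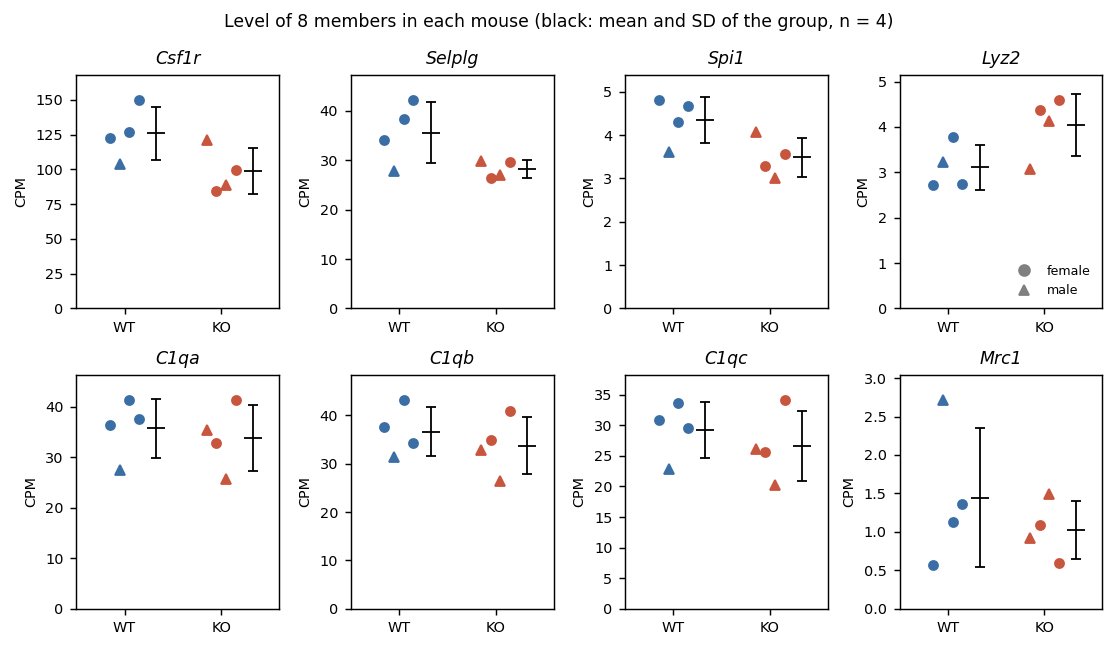
CPM of 8 members in each mouse, WT in blue and KO in red, females as circles and males as triangles, with the mean and SD of the 4 mice of a group in black and axes from 0. In *Csf1r* and *Spi1*, 3 of 4 KO mice lie below all WT mice, and in *Lyz2* 3 of 4 lie above them. The share of all genes with 3 of 4 KO mice outside WT was not counted. In *C1qa*, *C1qb* and *C1qc* the genotypes overlap over most of their range.

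*Rgs1*, a regulator of G-protein signalling that increases in activated lymphocytes and myeloid cells, had too few reads for the main test. Its counts were 7, 1, 4 and 4 in WT and 0, 1, 1 and 0 in KO mice, or 16 in WT and 2 in KO mice in all. The ratio of these sums, KO over WT, each divided by the summed library totals of its group, was 0.109, with an exact 95% interval from 0.0122 to 0.464 that covers counting error only and not the spread between mice. With no filter on low counts, edgeR gave an unadjusted p of 0.0124 and a Benjamini-Hochberg adjusted p of 0.904, and DESeq2 gave an unadjusted p of 0.0211 and no adjusted p. *Rgs1* is in the table of changed genes that the study made from these same mice, so its place among the members is not independent of them.

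Between mice the members moved largely as a block. Setting aside the 4 border macrophage and activation genes, 26 of the remaining 27 members varied less than 2-fold between the lowest and the highest mouse, *Fcrls* being the exception, and their coefficients of variation ran from 8.54% for *Siglech* to 25.5% for *Fcrls*, with a median of 16.1% against 14.6% over all genes tested. WT 3 was among the 2 highest mice for 22 of the 27 members (81.5%), which it was for 25.7% of all genes. KO 3 was among the 2 lowest for 20 (74.1%, against 23.3%), KO 2 for 17 (63.0%, against 27.8%) and WT 2 for 15 (55.6%, against 32.9%). The lowest 3 mice therefore came from both genotypes and both sexes. Averaged over the 27 members, each set to 100% at its mean of the 8 mice, the level was 106%, 86.5%, 114% and 108% in WT mice 1 to 4 and 106%, 87.0%, 83.7% and 108% in KO mice 1 to 4. The genotypes thus overlapped across nearly their whole range on this summary as well. The 3 tested border macrophage and activation genes did not follow it: WT 2, low for most members, was highest for *Mrc1*, and KO 3 was highest for *Cd74*.

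**Figure D4:**
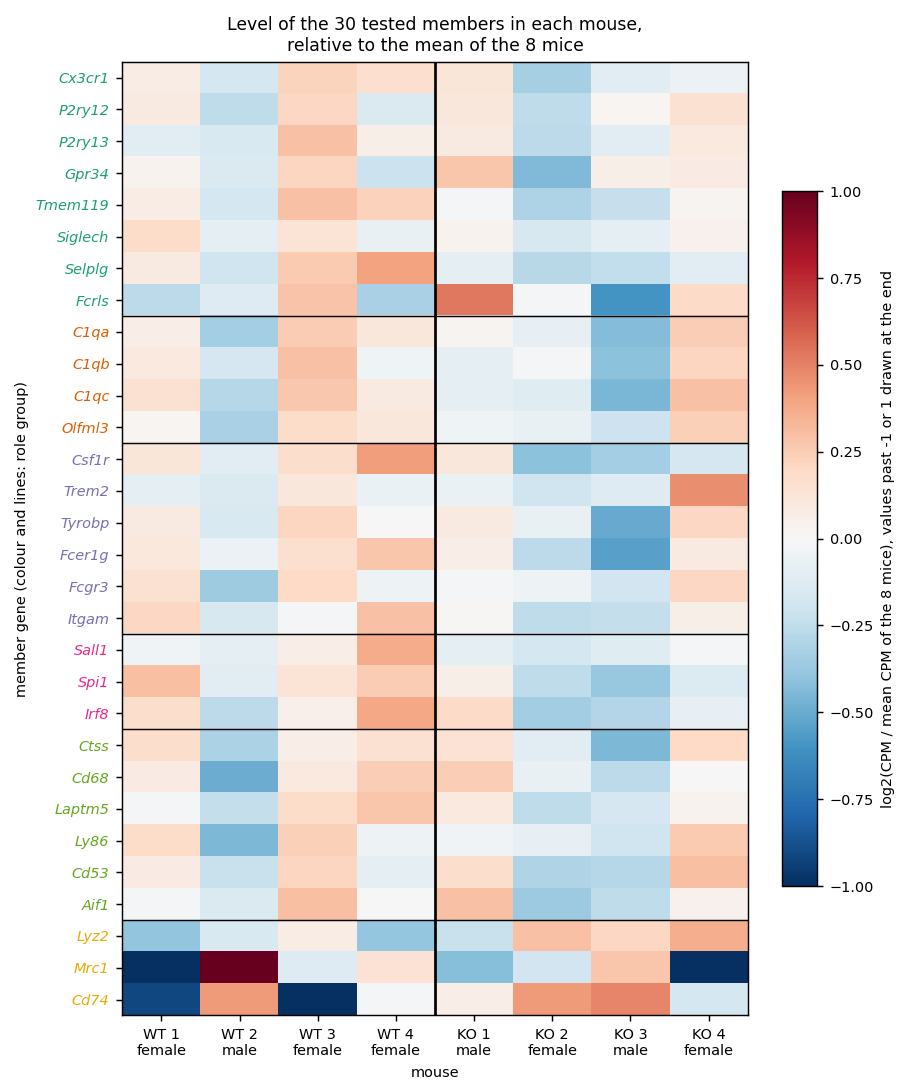
Level of the 30 tested members (rows, grouped by role) in each mouse (columns, WT left and KO right of the line) as log2 of CPM over the mean of the 8 mice, red above and blue below the mean. WT 2, KO 2 and KO 3 are blue in most rows and WT 3 is red, while *Lyz2*, *Mrc1* and *Cd74* in the last rows do not follow the same columns.

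Because sex was unevenly spread over the genotypes, males (n = 3) were compared with females (n = 5) in edgeR with genotype as a covariate. None of the 30 tested members was called (0 of 30), against 3.72% of all 17669 genes tested. Unadjusted p was under 0.05 for 7 members, against 15.9% of all genes, and DESeq2 called 1 member, *C1qc*, with 7 at an unadjusted p under 0.05, against 7.64% called of all genes it tested. The 6 with lower means in males were *C1qa*, *C1qb*, *C1qc*, *Olfml3*, *Fcgr3* and *Ly86* (6.32% of all genes were in that class), and the 1 with a higher mean was *Mrc1* (9.55% of all genes). All 3 C1q chains and *Olfml3* were thus among the 7. *C1qc* had the smallest adjusted p in edgeR (log2 fold change -0.41 ± 0.13, Benjamini-Hochberg adjusted p = 0.167), with 23.1 ± 2.90 CPM in males and 30.8 ± 3.41 CPM in females. *C1qb* was the only member whose sexes did not overlap, between 26.5 and 32.8 CPM in males and between 34.2 and 43.2 CPM in females, where 7.5% of all genes did not overlap. Within KO mice, *C1qc* had 26.1 and 20.3 CPM in the males and 25.7 and 34.1 CPM in the females, which overlapped, and in WT mice the 1 male had less than each female.

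Over the 30 members the median log2 fold change of males against females was -0.15, with 26 below 0, against 50.5% of all genes. This rested on single mice: without WT 2 the median was -0.02 and 15 of 30 lay below 0, without KO 1 or KO 2 it was -0.25, and without KO 1 edgeR called 3 members, *C1qa*, *C1qc* and *Ctss*, all lower in males. The 7 members at an unadjusted p under 0.05 became 11 without KO 2, 1 without KO 3 and 0 without KO 4 or WT 2. Of all genes, 657 were called, and this became 1462 without KO 1, 387 without KO 2, 59 without KO 3, 264 without WT 1, 10 without WT 2 and 316 without WT 4. Genes of cortical neurons also differed between the sexes in this fit. *Slc17a7* lay between 368 and 1356 CPM in males and between 5.45 and 260 CPM in females, and all 6 genes of the cortical excitatory list were called higher in males, as were 2.87% of all genes, with a median log2 fold change of 3.58. Of these 6 calls, 1 (*Cck*) was left without KO 3 and 0 without WT 2. The striatal neuron list, in contrast, had a median of -0.47 with 0 of 6 called. The cause of these differences in neuron genes, and their part in the values of the members, was not tested.

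Other genes of microglia, 35 in a further list, leaned to the same side as the members without any being called for genotype (0 of 35). The log2 fold change lay below 0 in 30 of them, against 50.3% of all genes. Its median was -0.17, against -0.00 over all genes, and ran from -0.19 to -0.11 with 1 mouse left out. This lean was not tested. The list was read in the same mice and chosen with earlier results of these data known, so it is not a separate observation. Among the most abundant were the protease *Lgmn* at 104 TPM, the integrin chain *Itgb5* at 27.8 TPM and the ectonucleotidase *Entpd1* at 11.5 TPM, with log2 fold changes of -0.02 ± 0.08, -0.15 ± 0.11 and -0.09 ± 0.13. Unadjusted p in edgeR was under 0.05 for 4 of the list, against 1.88% of all genes. All 4 had lower means in KO mice, as did 1.08% of all genes at that p, and are named here after their values were seen. They were *Mertk*, a receptor for the uptake of dying cells, at -0.29 ± 0.10, the phosphatase gene *Inpp5d* at -0.28 ± 0.09, *Vsir* at -0.18 ± 0.08, and *Cd14*, a co-receptor for lipopolysaccharide, at -0.38 ± 0.15. *Inpp5d* measured 15.5, 16.3, 15.7 and 16.9 CPM in WT and 14.9, 11.5, 13.8 and 12.9 CPM in KO mice. Its groups did not overlap, as with *Cd33*, so that 2 of 35 stood apart against 1.53% of all genes. *Inpp5d* is also in the study's table of changed genes from these mice.

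Among signals that microglia receive at rest, 0 of the 10 were called for genotype, by edgeR or DESeq2, with 0 at an unadjusted p under 0.05 in either. The same counts of 0 held for the activated, MHC class II and complement lists. The most abundant were *Cx3cl1* at 332 TPM, the inhibitory receptor *Sirpa* at 163 TPM, its ligand *Cd47* at 99.7 TPM and *Cd200* at 58.7 TPM, with log2 fold changes of -0.18 ± 0.13, -0.14 ± 0.12, 0.02 ± 0.17 and 0.32 ± 0.19. Of these signals, *Tgfb1* and its receptors *Tgfbr1* and *Tgfbr2*, which keep microglia in their mature state, had -0.18 ± 0.17, -0.06 ± 0.08 and -0.06 ± 0.10. *Sirpa* was higher in males (log2 fold change 0.32 ± 0.07, Benjamini-Hochberg adjusted p = 0.0697 in edgeR), a call that was kept without KO 1 and lost when any other mouse was left out.

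Of 17 genes that increase in activated microglia, 8 failed the filter on low counts, namely *Cst7*, *Itgax*, *Clec7a*, *Ch25h*, *Ccl3*, *Ccl4*, *Tnf* and *Il1b*, and none of these passed 0.300 CPM in any mouse. None of the other 9 was called (0 of 9). The 4 most abundant, *Apoe*, *Ctsb*, *Ctsd* and *Cd9*, are also made by other cells of the brain, and had log2 fold changes of -0.17 ± 0.18, -0.03 ± 0.09, 0.05 ± 0.07 and 0.09 ± 0.10. MHC class II genes, which *Cd74* serves, were low apart from *H2-DMa* at 25.0 TPM. *H2-Aa*, *H2-Ab1* and *H2-Eb1* lay between 0.216 and 1.29 CPM in all mice, and 0 of the 5 tested were called. *Cd74* stood at 2.86 ± 0.883 TPM for each TPM of *H2-Aa*.

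Of 11 further genes of border macrophages, 8 were tested and 0 called, and *Pf4*, *F13a1*, *Cd163*, *Cbr2*, *Siglec1* and *Clec10a* all stayed under 2 CPM. The most abundant in TPM were *Clec12a* at 3.78, *Stab1* at 1.25, *Pf4* at 0.927 and *Cd163* at 0.445. *Stab1*, which endothelial cells also make, had the 1 unadjusted p under 0.05 of this list, at -0.41 ± 0.18, and was named after its value was seen. The partners of C1q in the complement cascade were called in 0 of 9, with a median log2 fold change of -0.32 and wide intervals, of which 4 lay within 2-fold. Among their most abundant genes were *C4b* at 6.09 TPM, the inhibitor *Serping1* at 2.25 TPM and *C2* at 1.59 TPM, so that *C1qa* at 60.4 TPM exceeded each of these.

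Lists for other cells were followed from mouse to mouse beside the members. In the edgeR and DESeq2 fits made here, 0 genes of any of them were called for genotype. Unadjusted p in edgeR was under 0.05 for 1 of them, the astrocyte gene *Gfap* (log2 fold change -0.44 ± 0.18). Some genes of these lists, among them *Slc17a7* and *Cck*, are nonetheless in the study's table of changed genes from these mice. On the scale where the mean of the 8 mice is 100%, the 35 further microglial genes lay between 90.4% in KO 3 and 114% in WT 4. The oligodendrocyte list lay between 82.9% and 107%, the astrocyte list between 90.5% and 115%, and the endothelial list between 85.6% and 116%. The striatal list lay between 47.9% in WT 2 and 146% in WT 3, and the cortical list between 9.29% in KO 4 and 399% in WT 2. WT 3, high for the members, was thus low for cortical and high for striatal genes, and WT 2, low for the members, was the reverse. KO 4, in contrast, was the lowest for cortical genes and had 108% for the members. KO 2, with 14% for the cortical list, had 87.0% for the members. Striatal levels in WT mice 1 to 4 were 126%, 47.9%, 146% and 92.8%. In KO mice 1 to 4 they were 117%, 74.2%, 83.7% and 111%. The mice lowest for the striatal list, WT 2, KO 2 and KO 3, were also the lowest for the members. Any link between these lists and the members was not tested. Summed over their genes, blood leukocyte TPM lay between 22.5 and 45.5 in WT and between 30.3 and 40.5 in KO mice, nearly all of it *Cd4*, and erythroid TPM between 634 and 1629 in WT and between 619 and 1438 in KO mice. Ependymal TPM lay between 52.3 and 94.3 in WT and between 44.6 and 106 in KO mice, choroid plexus TPM between 12.8 and 47.1 and between 20.4 and 31.5, and neuroblast TPM between 53.0 and 82.2 and between 50.2 and 79.8.

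**Figure D5:**
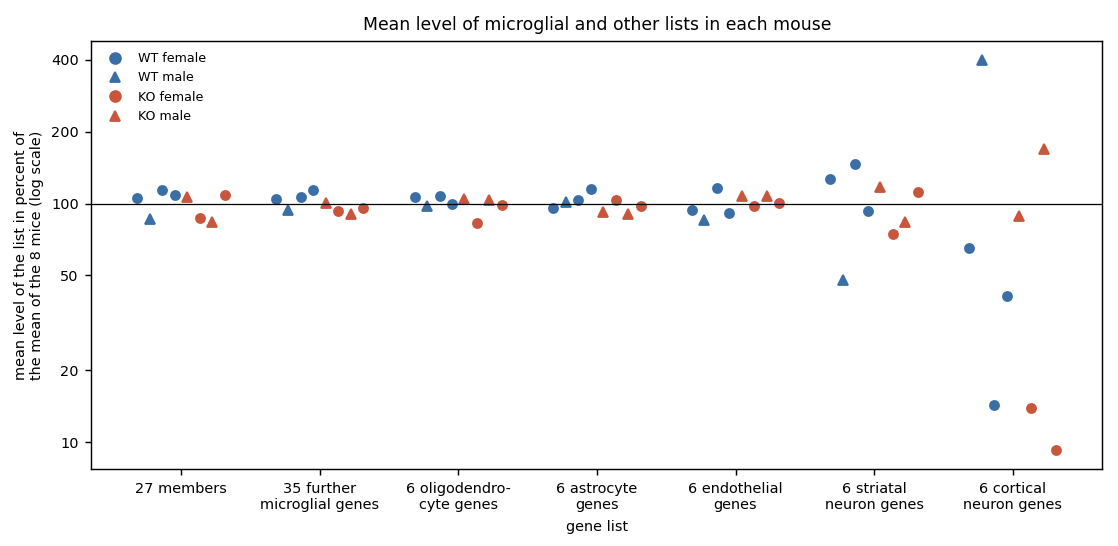
Mean level of 7 gene lists in each mouse in percent of the mean of the 8 mice, on a log axis, WT in blue, KO in red, females as circles and males as triangles. The 27 members lie between 83.7% and 114% with the genotypes interleaved, while the cortical list spans 9.29% to 399% with all males above all females.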

How the data were processed

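Bulk polyA RNA-seq was available for 4 *Lrig1* KO and 4 WT mice. The authors ran Salmon (bcl2fastq 2.20 is also named in their notes) against a Gencode annotation of GRCm39. Salmon's estimated counts were deposited by gene in one table that the authors had not normalized, and by transcript, together with TPM, in a file for every mouse. Columns were matched to mice by the tag in their names, with 0 left over. Gene names came from identifier tables, for 94.8% of 54307 genes. Transcripts were assigned to genes with Gencode annotation of GRCm38, which covered 97.4% of transcripts and at least 99.2% of reads, and TPM was summed per gene.

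Counts were rounded and tested with edgeR 4.0.16 in R 4.3.3 (TMM, filterByExpr, quasi-likelihood test, Benjamini-Hochberg over 17669 genes, threshold 0.1), without covariates for genotype and with genotype for sex. The SE of a log2 fold change is its size divided by the root of F. CPM are TMM-normalized. Alternatives were DESeq2 1.42.0, its size factors in edgeR, no filter, sex or replicate number as a covariate, females alone, and each mouse left out. The steps were tested on simulated data. Library totals, between 47887437 and 74482334, set the counting error, and replicates differed beyond sampling noise. P-values weigh a difference between groups against the spread between these mice.

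The members and all gene lists were chosen with earlier results of these data known, and no list was tested as a set. All members are named, and of each other list up to 4 genes of highest TPM and any past the threshold. A few genes that this rule would name are not reported here. Promoter windows are from RefSeq on GRCm38.p6. The fold changes and p-values in the study's supplement were not used.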

Additional observations from a re-analysis of the deposited data

Results flagged for a closer look

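In each genotype, the highest and the lowest mouse were compared with the nearest other mouse of the group for every member that was tested and for summed levels, 64 groups of 4 mice in all. In 2 of them (3.13%) the gap was past Dixon's 95% critical value, where chance gives about 1 in 20. *Trem2* was one, with 10.3 CPM in KO 4 and between 6.52 and 7.13 CPM in the other KO mice, and without KO 4 its log2 fold change was -0.09 in place of 0.09. The TPM summed over the 31 members was the other, with 706 in KO 4 and between 544 and 570 in the other KO mice. In WT mice that sum lay between 599 and 760, so that KO 4 was inside the range of WT.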

How the results depend on the processing

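In no alternative was a member called for genotype, and the smallest adjusted p among them was 0.714 (edgeR, sex as a covariate, for *Lyz2*). Of 420 values of the members' log2 fold changes, 372 kept their direction and 48, in 15 genes, did not. In females alone the value was -0.085 for *P2ry12* and -0.18 for *Gpr34*. Sex as a covariate gave -0.0053 for *Gpr34*, 0.020 for *C1qa*, 0.062 for *Olfml3*, 0.076 for *Fcgr3*, 0.017 for *Ctss*, 0.060 for *Cd68*, 0.10 for *Ly86* and 0.038 for *Cd53*. With 1 mouse left out it ranged from -0.042 to 0.11 for *P2ry12*, -0.13 to 0.028 for *P2ry13*, -0.064 to 0.16 for *Gpr34*, -0.017 to 0.34 for *Fcrls*, -0.19 to 0.033 for *C1qa*, -0.12 to 0.042 for *Olfml3*, -0.086 to 0.16 for *Trem2*, -0.19 to 0.035 for *Tyrobp*, -0.11 to 0.066 for *Fcgr3*, -0.17 to 0.051 for *Ctss*, -0.16 to 0.071 for *Cd68*, -0.13 to 0.079 for *Ly86*, -0.12 to 0.080 for *Cd53*, -0.22 to 0.0034 for *Aif1* and -0.76 to 0.0049 for *Mrc1*. The cause was not tested.

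The replicate numbers did not pair the mice, since deviations of same-numbered mice correlated at 0.08, -0.22, -0.23 and 0.27 and 1 of 4 WT mice matched its own number best. With the numbers as a replicate block, 0 of all genes were called, and the value was 0.0015 for *Fcgr3* and 0.0046 for *Ly86*. The 1 gene called for genotype became 12 in DESeq2, 3 in females alone, 2 with no filter, 2 with sex as a covariate and 0 to 3 with 1 mouse left out. For sex, 1 member was called in DESeq2, 1 with no filter (*C1qc* in both) and 0 to 3 with 1 mouse left out, where the median of the members ranged from -0.25 to -0.015. At this depth *Rgs1*, with 16 counts in WT and 2 in KO mice, stayed under the filter on low counts.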
